A study of Mus musculus with 10 samples.

Results

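The platelet-derived growth factor (PDGF) system was followed in newborn mice with and without the transcription factor Nkx2.2, through every probe set whose gene symbol on the array's annotation is Pdgfra, Pdgfrb, Pdgfa, Pdgfb, Pdgfc or Pdgfd. These 6 genes of 18193 read here, 2 receptors and 4 ligands, had 14 of the 45037 non-control probe sets. Pdgfra and Pdgfd had 3 each and the other 4 genes had 2 each, and none of the 14 carried a second symbol. RNA came from the pons, medulla and rostral spinal cord of C57BL/6 mice aged 1.5 to 2 days, taken from frozen sections 20 µm thick, and each mouse had 1 array. The 5 wild-type animals are replicates 14, 15, 16, 18 and 21, and their 5 Nkx2.2-/- littermates are replicates 11, 12, 22, 29 and 43. No treatment was given to either group. How the Nkx2.2 allele was made, and the sex and litter of each mouse, are not given in the sources used here. The Nkx2.2-/- mice lack the gene in every cell, so a difference cannot be assigned to 1 cell type from the genotype alone.

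PDGF ligands are secreted dimers that bring 2 receptor chains together and switch on their kinase domains. In the developing brain and spinal cord, PDGF-A from neurons and astrocytes acts on PDGF receptor alpha, encoded by Pdgfra, and drives the division and survival of oligodendrocyte precursor cells (OPCs), which lose the receptor as they differentiate. PDGF receptor beta, encoded by Pdgfrb, marks pericytes and vascular smooth muscle, which PDGF-B from endothelium recruits to vessels, and Pdgfra is also made by fibroblasts of the meninges. Nkx2.2 is a homeodomain repressor of ventral progenitors and of the oligodendrocyte lineage, and Pdgfra is known as one of the genes it represses. The comparison of the 2 genotypes asks whether that transcript, and the rest of its signalling system, differ in tissue that lacks Nkx2.2.

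The start of the Pdgfra gene is shown because it is the stretch through which a repressor of this gene would be looked for first. It is a window around the gene's start in RefSeq, build GRCm38.p6, at chr5:75152001-75152300 on the plus strand. Capitals mark the match to AAGTA, which lies on the opposite strand.
Pdgfra: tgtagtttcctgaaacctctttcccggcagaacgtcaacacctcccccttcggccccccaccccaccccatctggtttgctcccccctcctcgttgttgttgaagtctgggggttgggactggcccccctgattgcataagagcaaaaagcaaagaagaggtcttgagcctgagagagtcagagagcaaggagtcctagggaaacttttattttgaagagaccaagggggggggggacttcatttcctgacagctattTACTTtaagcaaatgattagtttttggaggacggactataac
The core that NK2-type homeodomains favour, AAGTG, was searched on both strands together with the variant that ends in A, and since the 2 differ at their last base they cannot match at the same place of a strand. The core was not found in this window, and the variant was found 1 time, starting at base 9 of the part after the gene's start. Of 32851 RefSeq windows of the same length, 46.4% held the core and 31.2% held the variant on either strand, and 61.9% held the core or the variant. Pdgfrb and Pdgfb had no window here. The 2 windows of Pdgfa held neither, that of Pdgfc held the variant 1 time and that of Pdgfd the core 1 time. These are matches of letters, not binding sites, and the window leaves out any distant element.

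The brightest Pdgfra probe set, 1421917_at, read 8.07, 7.68, 7.91, 7.87 and 7.83 log2 units in wild-type replicates 14, 15, 16, 18 and 21. It read 8.09, 8.39, 7.996, 8.55 and 8.95 in Nkx2.2-/- replicates 11, 12, 22, 29 and 43. All 5 Nkx2.2-/- mice lay above the wild-type mean and 4 of them above every wild-type mouse, while replicate 22 lay below wild-type replicate 14, so the groups overlapped. The means were 7.87 ± 0.143 in wild type and 8.39 ± 0.382 in Nkx2.2-/- mice (SD, n = 5 each). The log2 change was 0.52 (SE 0.16, 95% interval 0.17 to 0.87), a ratio of 1.44 with an interval of 1.12 to 1.83. This did not pass over all probe sets (limma, Benjamini-Hochberg adjusted p = 0.9997), although the unadjusted limma p was 0.00766. The exact two-sided permutation test of this probe set alone gave p = 0.0159, where 5 mice against 5 can give no less than 0.00794.

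Among the 18193 genes read by their brightest probe set, Pdgfra had the third largest positive change by size and stood at place 134 by unadjusted p. The larger 2, named after their values were seen, were Hoxc8, a patterning gene of the trunk spinal cord, at 1.33 (SE 0.45), and Xist, the transcript of X inactivation, at 1.05 (SE 1.48). Neither passed (limma, adjusted p = 0.9997 for each). Hoxc8 ran from 4.53 to 4.84 in wild type, and read 4.72, 4.82, 7.22, 6.96 and 6.17 in Nkx2.2-/- replicates 11, 12, 22, 29 and 43. With the level of Xist in each mouse as a covariate, chosen after seeing the data, the Pdgfra change was 0.57 (SE 0.15), and with the mean of 9 spinal Hox genes as a covariate it was 0.55 (SE 0.22). Of all 18193 genes, 1.5% had at least 4 Nkx2.2-/- mice above every wild-type mouse, as Pdgfra did, and 0.154% had all 5.

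The dimmer Pdgfra probe sets moved less. Probe set 1421916_at read 4.90, 4.87, 4.84, 4.92 and 4.82 in the wild-type mice and 4.90, 5.01, 4.92, 4.95 and 5.14 in the Nkx2.2-/- mice, in the same order of replicates. Its log2 change was 0.12 (SE 0.050), which did not pass (limma, adjusted p = 0.9997). In it all Nkx2.2-/- mice lay above the wild-type mean and 3 lay above every wild-type mouse. Across the 10 arrays it ran with the brightest one, at a Pearson r of 0.90 as a description. Probe set 1438946_at read 5.12, 5.03, 5.13, 5.48 and 5.35 in wild type and 5.45, 5.29, 5.17, 5.13 and 5.35 in the Nkx2.2-/- mice. Its groups lay over each other, differing by 0.06 in log2 (SE 0.092, limma adjusted p = 0.9997), and its r with the brightest probe set was 0.16. The mean of the brightest probe set lay above 93.8% of all probe sets, and those of the others above 43.6% and 54.8%. Signals of different probe sets are not on 1 scale of transcript amount, and RMA compresses differences between dim ones. Whether low signal has a part in the smaller changes was not tested. The dimmest, 1421916_at, was the one that ran with the brightest, and 1438946_at did not. Which exons or isoforms each probe set reads was not examined here.

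**Figure D1:**
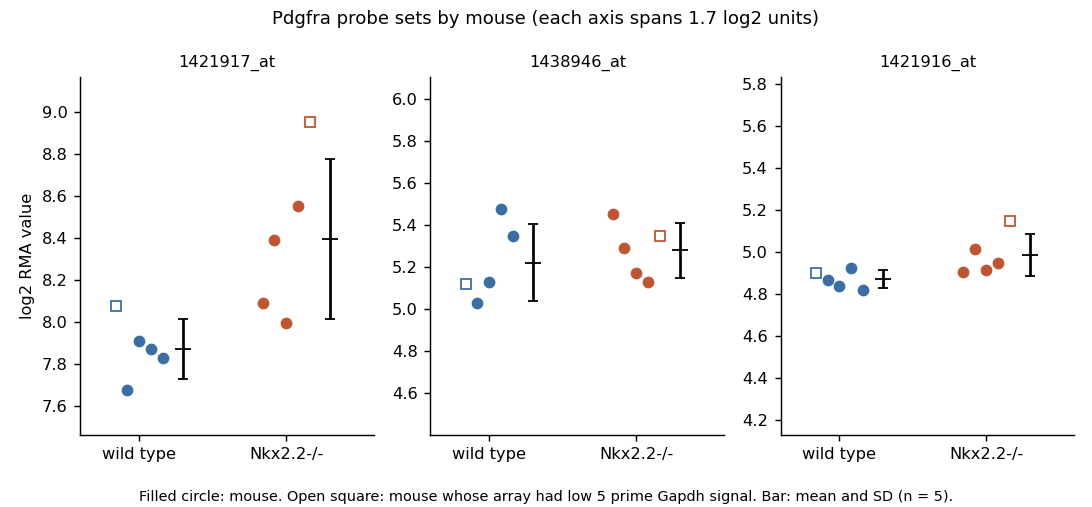
Log2 RMA value of each Pdgfra probe set in each mouse, wild type in blue and Nkx2.2-/- in orange, with mean and SD (n = 5 each) as bars. Open squares are wild-type replicate 14 and Nkx2.2-/- replicate 43. In the left panel 4 of 5 Nkx2.2-/- mice lie above the highest wild-type mouse, at 8.07, and in the middle panel the groups lie over each other.

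Spread within a genotype was wide for the brightest Pdgfra probe set. The 5 Nkx2.2-/- mice spanned 0.95 log2 units and the wild-type mice 0.40, and the pooled SD of 0.289 exceeded that of 95.4% of probe sets. The highest mouse of each genotype was the one whose array had a dim 5 prime control probe set of Gapdh, a sign of shortened RNA. Gapdh read 2.13 log2 units more at its 3 prime than its 5 prime end in wild-type replicate 14, and 3.78 more in replicate 43 of the Nkx2.2-/- mice. The remaining 8 arrays lay between -0.32 and 0.13. Pdgfra in these 2 mice was 0.17 and 0.40 above the next mouse of the same genotype. Without both arrays the log2 change was 0.43 (SE 0.11), and the 4 remaining Nkx2.2-/- mice, from 7.996 upward, lay above the 4 wild-type mice, of which the highest was at 7.91. The exact two-sided p was then 0.0286, the smallest that 4 against 4 can give, and 1.07% of the 18193 genes were separated in that direction on the same arrays. Leaving out wild-type replicate 14 removes the only overlap, which favours such a separation. With the Gapdh difference as a covariate, chosen after seeing the data, the change was 0.46 (SE 0.10, limma adjusted p = 0.543).

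The genes whose brightest probe set was most like Pdgfra over the 10 arrays, among 12100 genes above the median signal, were Shc4 (Pearson r 0.95), Zfp27 (0.91), Pla2g4e (0.91), Slc1a2 (0.91) and Gopc (0.89). After the mean of each genotype was taken away, the same 5 had an r of 0.89, 0.84, 0.82, 0.94 and 0.93. Shc4 encodes an adaptor of receptor tyrosine kinases, and its log2 change was 0.22 (SE 0.069, limma adjusted p = 0.9997). Slc1a2 encodes the main glutamate transporter of astrocytes and had a change of 0.30 (SE 0.19, limma adjusted p = 0.9997). All 5 were highest of the Nkx2.2-/- mice in replicate 43, and Shc4 and Slc1a2 were highest of the wild-type mice in replicate 14, which are the arrays with the large Gapdh difference. These values were picked as the highest of many and share those arrays, so they are a description.

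Pdgfrb was not higher in any Nkx2.2-/- mouse than the wild-type mean in its brighter probe set. That probe set, 1436970_a_at, read 6.38, 6.71, 6.08, 6.49 and 6.30 in wild-type replicates 14, 15, 16, 18 and 21, and 6.08, 6.34, 6.11, 6.28 and 6.18 in Nkx2.2-/- replicates 11, 12, 22, 29 and 43. The log2 change was -0.19 (SE 0.10, 95% interval -0.42 to 0.04), and it did not pass (limma, unadjusted p = 0.0894, adjusted p = 0.9997). The groups overlapped, with the lowest mouse of each at 6.08. The other probe set, 1417148_at, ran from 5.46 to 5.64 in wild type and from 5.43 to 5.62 in Nkx2.2-/- mice, with a change of -0.04 (SE 0.051, limma adjusted p = 0.9997). Over all 18193 genes 9637 were lower in sign and 0.0605% passed. Of 12 measured genes of mural cells, the vessel cells that Pdgfrb marks, 0 passed and 10 were lower in sign, with a median change of -0.04. Rgs5, a pericyte marker, had the lowest p of them, with a change of -0.39 (SE 0.11, limma adjusted p = 0.9997). The mean of the mural genes ran from 5.77 to 6.12 in wild type and from 5.82 to 5.98 in Nkx2.2-/- mice, and its part in the Pdgfrb values was not tested.

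Pdgfa, the ligand that acts on OPCs through the alpha receptor, lay at nearly the same level in both genotypes. Its brightest probe set, 1449187_at, read 7.54, 7.73, 7.52, 7.51 and 7.51 in the wild-type mice and 7.44, 7.59, 7.58, 7.56 and 7.56 in the Nkx2.2-/- mice, in the order of replicates given above. The log2 change was -0.02 (SE 0.052, limma adjusted p = 0.9997), and its 95% interval, from -0.13 to 0.10, corresponds to ratios from 0.911 to 1.07. The other probe set, 1418711_at, was more scattered, from 6.84 to 7.41 in wild type and from 6.78 to 7.30 in Nkx2.2-/- mice. Its change was -0.07 (SE 0.12, limma adjusted p = 0.9997). Replicates 14 and 43 were the lowest of their genotypes in it.

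Pdgfb, the endothelial ligand of the beta receptor, read 6.64, 6.81, 6.60, 6.69 and 6.62 in wild type and 6.49, 6.75, 6.59, 6.67 and 6.40 in Nkx2.2-/- mice by probe set 1450414_at. Although 3 Nkx2.2-/- mice lay below every wild-type mouse, the log2 change was only -0.09 (SE 0.070, limma adjusted p = 0.9997). The dimmer 1450413_at gave -0.03 (SE 0.067), with replicates 14 and 43 again lowest in their genotypes. Of 10 measured endothelial genes 0 passed, against 0.0605% of all 18193 genes, with a median change of -0.03.

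Pdgfc and Pdgfd encode ligands that are secreted in a latent form, with a CUB domain that proteases cut away. Pdgfc, which binds the alpha receptor once cut, read 5.69, 5.82, 5.73, 6.24 and 6.02 in wild type and 6.05, 5.74, 5.54, 5.75 and 5.85 in Nkx2.2-/- mice by probe set 1419123_a_at. The groups overlapped, and the log2 change was -0.11 (SE 0.12, limma adjusted p = 0.9997). Its second probe set, 1449351_s_at, ran from 5.34 to 5.79 and from 5.28 to 5.60, with a change of -0.04 (SE 0.086). Pdgfd, a ligand of the beta receptor, was dim. Probe set 1456532_at ran from 4.64 to 5.05 in wild type and from 4.79 to 5.12 in Nkx2.2-/- mice, a change of 0.02 (SE 0.084, limma adjusted p = 0.9997). The means of 1446691_at and 1426319_at lay above only 4.52% and 4.28% of probe sets, so their changes of 0.07 (SE 0.040) and 0.006 (SE 0.065) say little about the transcript.

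**Figure D2:**
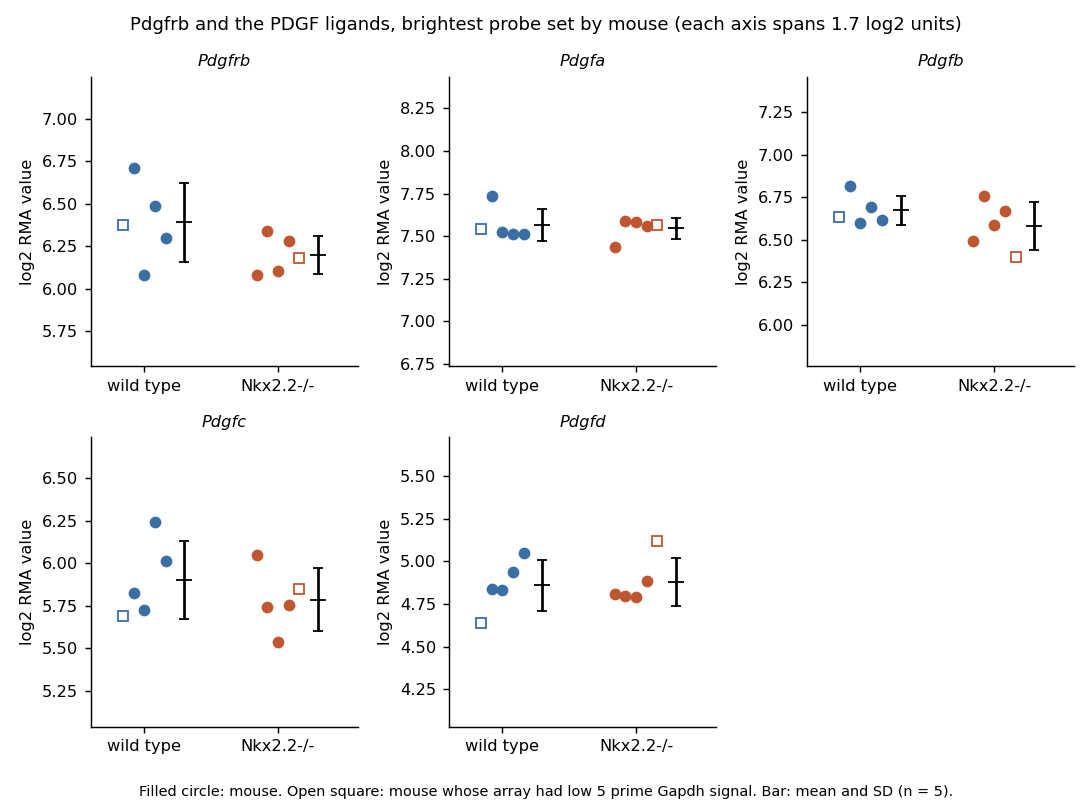
Log2 RMA value of the brightest probe set of Pdgfrb and of each ligand in each mouse, wild type in blue and Nkx2.2-/- in orange, with mean and SD (n = 5 each) as bars. In every panel the genotypes overlap, and Pdgfa differed by -0.02 between the means.

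Of the 14 probe sets, 0 passed in either direction, against 0.0511% of all 45037 probe sets, all 23 of which were lower in Nkx2.2-/- mice (limma, Benjamini-Hochberg). At an unadjusted limma p under 0.05 there were 2 of 14, both of Pdgfra and both higher, against 3.43% of all probe sets in either direction and 1.08% in that direction. Those 2 read 1 gene on the same arrays, at a Pearson r of 0.90, and are not independent. In none of the 14 did the groups stand apart, as they did in 0.757% of all. By sign 6 were higher and 8 lower, with a median log2 change of -0.02 against 0.001 over all probe sets. Outside Pdgfra the 11 intervals lay between -0.42 and 0.20, and every one of them held 0.

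**Figure D3:**
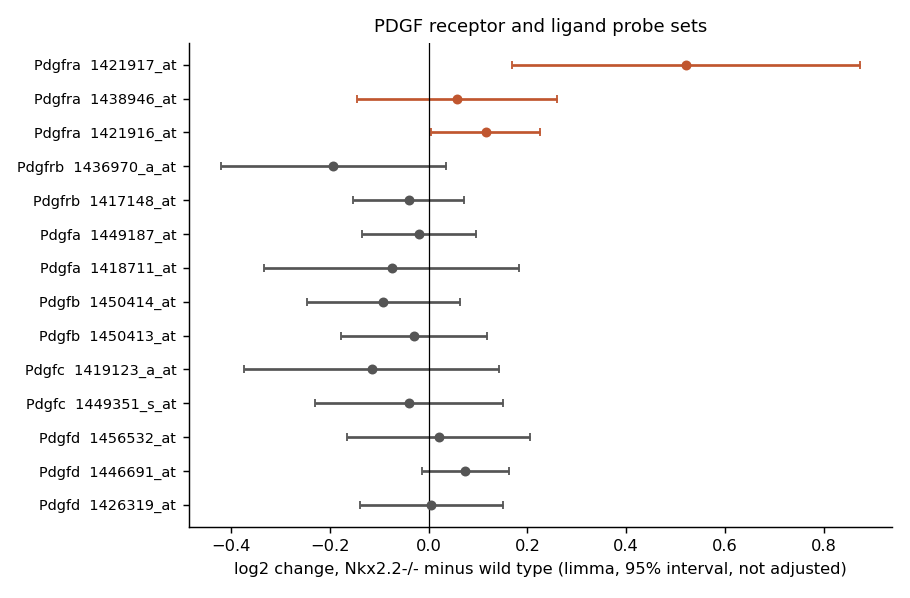
Log2 change of each of the 14 probe sets, Nkx2.2-/- minus wild type, with unadjusted 95% intervals from limma, Pdgfra in orange. The brightest Pdgfra probe set stands at 0.52 and the interval of 1421916_at also lies above 0, while the 11 intervals of the other genes hold 0.

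Pdgfra was also set, on the same arrays, against OPC genes, meningeal genes and Pdgfrb. Each of these 3 differences was larger in the Nkx2.2-/- mice, although the meningeal one did not pass under every alternative. All 3 hold the same Pdgfra values, so they are not independent of each other or of the test of Pdgfra alone. Their p-values were adjusted together, and since Pdgfra was taken up with earlier results of these arrays known, they are no independent support for its change. Pdgfra minus the mean of 18 OPC genes was 0.794 ± 0.134 in wild type and 1.33 ± 0.341 in Nkx2.2-/- mice (SD, n = 5 each), a log2 difference of 0.53, and 4 of 5 Nkx2.2-/- mice exceeded all wild-type values (exact two-sided permutation p = 0.0159, adjusted 0.0238). Pdgfra alone had given the same exact two-sided permutation p of 0.0159. The OPC genes themselves ran from 7.04 to 7.10 in wild type and from 6.95 to 7.17 in Nkx2.2-/- mice. Pdgfra minus Pdgfrb was 1.48 ± 0.332 and 2.195 ± 0.347, with no overlap of the groups and a difference of 0.71 (exact two-sided permutation p = 0.00794, adjusted 0.0238). Part of it is the lower Pdgfrb mean.

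Pdgfra minus the mean of 14 genes of meningeal fibroblasts was 0.700 ± 0.485 and 1.46 ± 0.327 (SD, n = 5 each), a difference of 0.76 (exact two-sided permutation p = 0.0238, adjusted 0.0238). It no longer passed without the arrays of replicates 14 and 43 (0.66, exact adjusted p = 0.0857), nor with the mean of the 3 Pdgfra probe sets in place of the brightest (0.47, exact adjusted p = 0.0714). The mean of the meningeal genes ran from 6.56 to 7.73 in wild type and from 6.73 to 7.16 in Nkx2.2-/- mice. Of all 18193 genes 9637 were lower in sign, and of the 14 meningeal genes 13 were, with a median change of -0.24. Part of the difference of 0.76 is the lower mean of the meningeal genes. With their mean as a covariate the Pdgfra change was 0.54 (SE 0.18), and with that of the OPC genes 0.55 (SE 0.14).

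**Figure D4:**
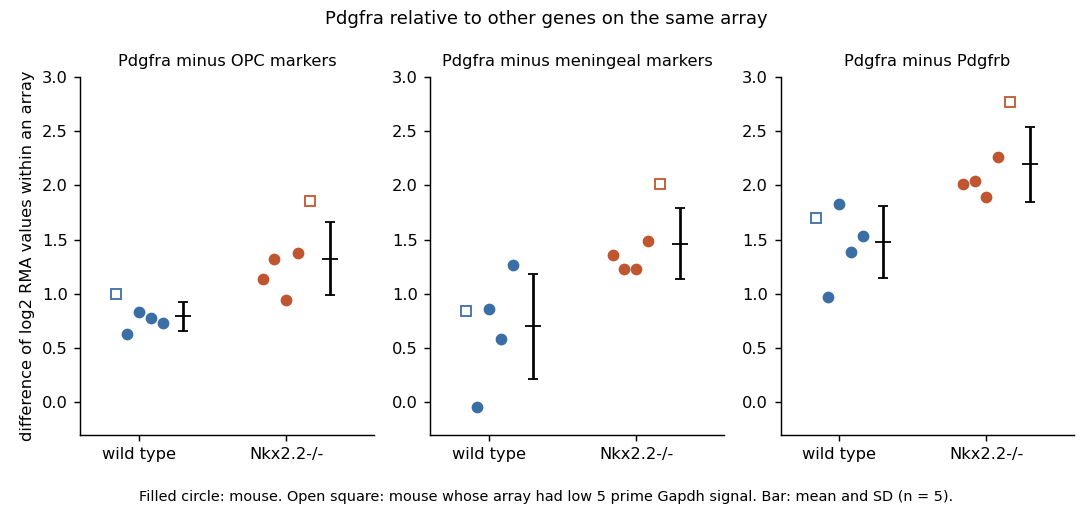
Difference of log2 values between the brightest Pdgfra probe set and, from left to right, the mean of 18 OPC genes, the mean of 14 meningeal genes and Pdgfrb, for each mouse, with mean and SD (n = 5 each) as bars. Wild type is blue, Nkx2.2-/- orange, and open squares are the arrays of low 5 prime Gapdh signal. The 5 Nkx2.2-/- mice lie above all wild-type mice in the right panel, where the means are 1.48 and 2.195.

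No other marker of OPCs differed as Pdgfra did in size. Of 18 measured OPC genes, 0 passed in either direction, 7 were higher and 11 lower in sign, and the changes ran from -0.22 to 0.14 with a median of -0.03, against -0.004 over all 18193 genes, of which 0.0605% passed. Olig2, a transcription factor of the whole lineage, had a change of 0.13 (SE 0.066) and Tnr, a matrix glycoprotein, one of -0.22 (SE 0.10), the lowest p values of the list (limma adjusted p = 0.9997 for both). Cspg4, the proteoglycan NG2 that OPCs carry beside the alpha receptor, stood at 5.82 ± 0.359 and 5.86 ± 0.227 (SD, n = 5 each). In this bulk tissue, fewer or more cells of a type and less or more RNA per cell cannot be told apart.

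Among genes of the stages that follow the OPC, some myelin genes fell and no gene of committed precursors passed. Of 12 measured myelin genes 6 fell (limma adjusted p under the threshold of 0.05), with a median change of -0.47: Mbp, Cnp, Mobp, Mag, Cldn11 and Ugt8a. Mbp, which encodes the basic protein of compact myelin, was lower by a log2 change of -2.74 with an SE of 0.22 (adjusted p = 0.000443, limma). Of 8 genes of committed precursors 0 passed, though 8 of 8 were lower in sign, 6 had an unadjusted limma p under 0.05, and the median was -0.26. Over all 18193 genes 9637 were lower in sign, and 548 were lower at an unadjusted limma p under 0.05. Bcas1, a marker of newly formed oligodendrocytes, had a change of -0.77 (SE 0.14, limma adjusted p = 0.334) and Sirt2, a deacetylase of oligodendrocytes, one of -0.48 (SE 0.10, limma adjusted p = 0.618). Both were lower in every Nkx2.2-/- mouse than in any wild-type mouse, which held for 0.528% of the 18193 genes. Nkx2-2 itself fell, with a change of -2.05 (SE 0.11, adjusted p = 7.2e-05, limma) and was the only one of 15 measured lineage regulators to pass. Among the others Sox10 and Sox9, which activate Pdgfra, had changes of 0.06 (SE 0.096) and 0.01 (SE 0.080).

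The machinery downstream of the receptors showed no called difference. Of 32 measured effectors of PDGF receptor signalling, 0 passed and 0 had an unadjusted limma p under 0.05, against 3.69% of all genes, and their changes ran from -0.19 to 0.13. Nras, a small GTPase of the Ras pathway, had the lowest p (change -0.19, SE 0.085), followed by the kinase Akt2 (change -0.16, SE 0.094), and neither passed (limma, adjusted p = 0.9997 for each). Plcg1, the phospholipase that docks on activated PDGF receptors, and Pik3r1, a regulatory subunit of phosphoinositide 3-kinase, had changes of 0.08 (SE 0.076) and -0.01 (SE 0.083). Of 13 measured genes that dampen the signal, such as phosphatases, Cbl ubiquitin ligases and Sprouty proteins, 0 passed, with changes from -0.10 to 0.07. The phosphatase genes Ptpn1 and Ptpn2, of lowest p there, had changes of 0.05 (SE 0.042) and -0.10 (SE 0.084), and Spry2 and Dusp6, feedback genes of the MAP kinase pathway, had changes of -0.05 and -0.04.

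Of 7 genes whose products cut or bind PDGF or assist its receptors, 0 passed. Plat, whose protease cuts PDGF-C, had a change of -0.20 (SE 0.16) and Sparc, which binds PDGF-B, one of -0.10 (SE 0.074). Of 9 other growth factor receptors of the lineage 0 passed and 1 had an unadjusted limma p under 0.05: Lpar1, a lysophosphatidic acid receptor of maturing oligodendrocytes, with a change of -0.21 (SE 0.064, limma adjusted p = 0.9997). Met, the receptor of hepatocyte growth factor, followed at -0.16 (SE 0.10). Of 5 measured genes of the related VEGF ligands 0 passed and 5 were lower in sign, with Pgf at -0.07 (SE 0.044) and Vegfa at -0.18 (SE 0.12). Of all 18193 genes 9637 were lower in sign, 0.0605% passed and 3.69% had an unadjusted limma p under 0.05.

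The genes that lie next to Pdgfra on chromosome 5 had smaller changes, of both signs. In the RefSeq order Lnx1, Chic2 and Gsx2 precede Pdgfra, and Kit and Kdr, which encode related receptor tyrosine kinases, follow it. Their log2 changes were 0.10 for Lnx1 (SE 0.096), -0.12 for Chic2 (SE 0.063), 0.02 for Gsx2 (SE 0.051), 0.06 for Kit (SE 0.19) and -0.06 for Kdr (SE 0.077), and none passed (limma, adjusted p = 0.9997 for each). Csf1r and Flt3, the other receptors of the same class, stood at -0.11 (SE 0.066) and 0.06 (SE 0.052).

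**Figure D5:**
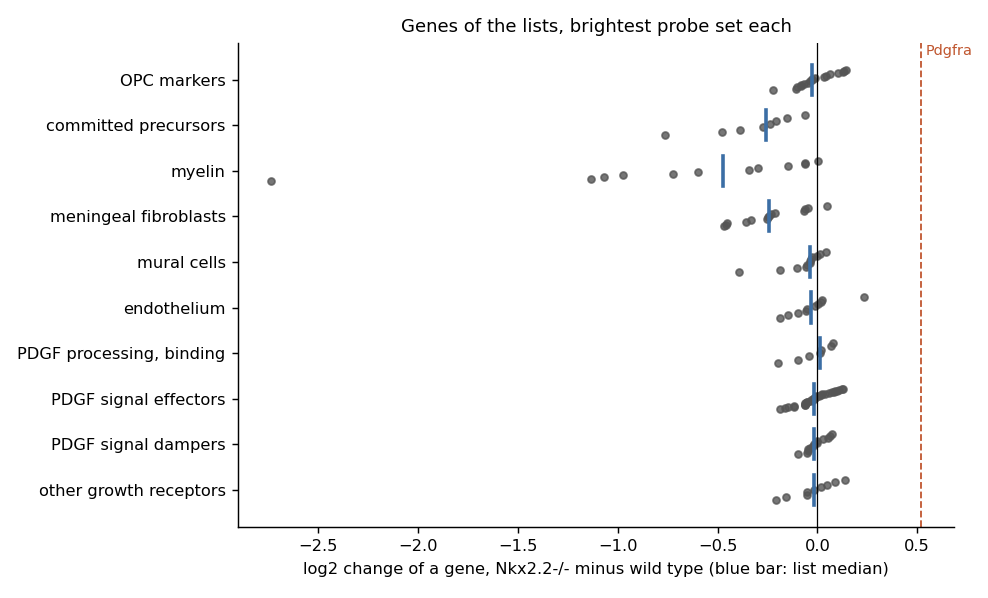
Log2 change of each measured gene of 10 lists, Nkx2.2-/- minus wild type, by its brightest probe set, with the list median as a blue bar and Pdgfra, at 0.52, as a dashed line. The 32 effectors of PDGF signalling lie between -0.19 and 0.13, and the myelin genes, with a median of -0.47, reach lowest.

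Genes of other cells in the tissue did not pass either. The median change was -0.11 over 9 astrocyte genes, 0.03 over 8 neuronal genes, -0.10 over 8 microglial genes and -0.04 over 2 measured Schwann cell genes. Those of lowest p were S100b (-0.35, SE 0.13) and Aldh1l1 (-0.27, SE 0.10) of astrocytes, Ly86 (-0.20, SE 0.072) of microglia, and Emcn (-0.15, SE 0.081) and Cdh5 (-0.19, SE 0.12) of endothelium. By sign 4 of 9 astrocyte, 5 of 8 neuronal, 1 of 8 microglial and 4 of 10 endothelial genes were higher. The highest change was 0.30 among the astrocyte genes and 0.23 among the endothelial genes. Of all 18193 genes 8556 were higher in sign, and 0.0605% passed in either direction. For the 9 spinal Hox genes the median was 0.21, with 9 of 9 higher in sign. Their mean ran from 5.04 to 5.22 in wild type and from 5.16 to 5.69 in Nkx2.2-/- mice, highest in replicates 22 and 29, of which the first had the lowest and the second the next to highest Pdgfra value of that genotype.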

How the data were processed

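The authors deposited a table of log2 values, which their processing notes in the labels ascribe to RMA, and no version is given in the sources used here. The method subtracts background, forces all arrays to 1 distribution and combines the probes of a set, so it hides any shift common to the whole transcriptome and does not say which probe sets were detected. The number of arrays limits the precision. P-values set the difference between genotypes against the spread between these mice, and with 1 array per mouse that spread includes technical variation. Array medians ran from 5.07 to 5.12.

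Without 64 controls, 45037 of 45101 probe sets were kept. In the annotation 34945 of them had 1 symbol, 932 several and 9160 none. The Entrez numbers of 18032 of 18193 genes were found in the RefSeq gene table (assembly GRCm38.p6), and 0 of these had a different symbol there. Changes subtract the wild-type mean, and come from lmFit and eBayes of limma 3.58.1 (R 4.3.3), without covariates or filter, adjusted by Benjamini-Hochberg over 45037 probe sets at 0.05. Where 1 value per gene was needed, the probe set of highest mean stood for it. Exact two-sided permutation tests used scipy 1.17.1. The fit was also run on simulated data as a check of the code, and its power for a change of the size of that of Pdgfra is not given here.

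The members, gene lists, contrasts and the rule for named genes were chosen with earlier results of these data known. The rule covered all member probe sets, Nkx2-2, list genes past the threshold or else the 2 of lowest p, and the 5 genes most like Pdgfra. Of the genes it covered, Colec12, Lum, Anpep, Rbfox3, Nefl, Egr2, Pmp2 and Hoxd8 were left undescribed. Further genes (Cspg4, Sox9, Sox10, Plcg1, Pik3r1, Spry2, Dusp6, Hoxc8, Xist and neighbours of Pdgfra) were named after their values were seen.

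Alternatives were a second quantile normalization, a common median, 1 or the mean probe set per gene, dropping dimmer probe sets, array weights, a robust or trended prior, the spinal Hox, meningeal or OPC mean as covariate, and dropping replicates 14 and 43 together or each array alone. The Gapdh and Xist covariates were added after seeing the data.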

Additional observations from a re-analysis of the deposited data

Results flagged for a closer look

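In the brightest Pdgfa probe set, 1 mouse of each genotype stood apart from the other 4. Wild-type replicate 15 read 7.73 against 7.51 to 7.54 in the others, and Nkx2.2-/- replicate 11 read 7.44 against 7.56 to 7.59. Of 34 groups of values examined in this way 2 stood apart, where chance gives about 1 in 20.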

How the results depend on the processing

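The Pdgfra change stayed positive and short of the adjusted threshold in all 24 alternatives, from 0.23 (mean of its probe sets) to 0.62, with limma adjusted p no lower than 0.461 (array weights). Without each array in turn it was 0.38 to 0.62, lowest without Nkx2.2-/- replicate 43. No member probe set passed in any of 316 fits, and no probe set was called higher. The count called lower was 23, and 11 with 1 probe set per gene, 12 with probe sets averaged by gene and 11 with the spinal Hox covariate, fewer probe sets being tested in the first 2, while it was 31 both with a trended prior and with the Gapdh covariate. Without each array it was 18 to 23. Pdgfra minus OPC genes, minus meningeal genes and minus Pdgfrb were 0.40 to 0.63, 0.58 to 0.91 and 0.57 to 0.80 without each array. Minus meningeal genes, the difference was 0.47 with the mean of the Pdgfra probe sets and 0.66 without replicates 14 and 43, and did not pass in either. The cause was not tested.

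Changes near 0 turned sign in 24 fits, none of them called in any, and the cause was not tested. Under the spinal Hox covariate 1417148_at (Pdgfrb) was at 0.0021, 1419123_a_at and 1449351_s_at (Pdgfc) at 0.032 and 0.056, and 1456532_at (Pdgfd) at -0.0089. Under the meningeal covariate 1417148_at was at 0.00041, 1449187_at (Pdgfa) at 0.024, and 1456532_at and 1426319_at (Pdgfd) at -0.013 and -0.024. A second quantile normalization put 1449187_at at 0.0082, array weights put 1456532_at at -0.041, and the Gapdh covariate put 1426319_at at -0.0073. Without replicates 14 and 43 together, 1456532_at and 1426319_at were at -0.094 and -0.066. Without each array in turn, 1449187_at ran from -0.033 to 0.023, 1450413_at (Pdgfb) from -0.068 to 0.022, 1449351_s_at from -0.086 to 0.026, 1456532_at from -0.039 to 0.067 and 1426319_at from -0.044 to 0.041.

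At an unadjusted limma p under 0.05, 3.69% of all 18193 genes were called. In the lists it was 6 of 8 committed precursor, 2 of 9 astrocyte, 2 of 9 spinal Hox and 1 of 14 meningeal genes. It was also 1 of 12 mural, 1 of 8 microglial and 1 of 9 growth factor receptor genes. After adjustment 0 were called in each of these lists. Of 12 myelin genes 9 were called, against 6 after adjustment. No paired analysis was possible because the labels do not tie mice to litters and the genotypes share 0 replicate numbers, so any effect of litter is not in the fits. Low signal limits Pdgfd and the dimmer Pdgfra probe sets most.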
